A study of Mus musculus with 12 samples.

Results

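The nuclear genes of oxidative phosphorylation were followed in marginal zone B cells, splenic B lymphocytes that sit at the edge of the white pulp and answer bacterial products quickly. Genes were taken by symbol: Nduf with a, b, c, s or v and a digit, Sdha to Sdhd, Uqcr, Cox with a digit of 4 to 8 and a letter, and Atp5. Symbols of the Ndufaf assembly factors were left out. Of 24346 symbols, 84 met this rule. By textbook assignment 35 belong to complex I, 4 to complex II, 8 to complex III, 18 to complex IV (Ndufa4 among them) and 15 to complex V. The other 4, Cox7a2l, Ndufa4l2, Atp5s and Atp5sl, carry a subunit-like name but are not subunits of these complexes. The rule also misses subunits and carriers with other symbols, such as Ndufab1 of complex I, Cyc1 of complex III and cytochrome c (Cycs).

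The cells came from Trpm5-/- mice (KO) and wild-type mice (WT). They had 4 h of culture with lipopolysaccharide (LPS) at 10 µg/mL, with anti-IgM antibody at 10 µg/mL or with no stimulus, which makes 6 groups of 2 libraries, 12 in all. TRPM5 is a cation channel that opens when calcium rises inside the cell. LPS is the bacterial ligand of Toll-like receptor 4, and anti-IgM engages the B cell receptor. The sources used here do not give strain, age or the deleted part of Trpm5. They also do not say whether libraries of 1 group are separate mice, so the p-values measure the spread among these libraries, which could be technical.

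Oxidative phosphorylation passes electrons from NADH (complex I) and succinate (complex II) through complex III and cytochrome c to oxygen at complex IV. The protons pumped on the way drive ATP synthase, complex V. Complexes I, III, IV and V also hold subunits encoded in mitochondrial DNA, which were not analysed here. Resting B cells have little cytoplasm, and B cells that are activated enlarge and raise both glycolysis and respiration.

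Values were FPKM, fragments per kilobase of transcript scaled to the mapped fragments of a library, already scaled between libraries as deposited. Library sums ran from 563461 to 805373 FPKM and were highest with LPS, and relative depth ran from 0.645 to 1.06 of that of the first WT unstimulated library. Trpm5 was at 0 to 0.0303 FPKM in the KO libraries and at 0.0196 to 0.434 FPKM in the WT libraries, too low to be tested and overlapping between genotypes without stimulus. The 5 pan-B markers summed to 1629 to 5609 FPKM and the T cell markers to at most 1.378 FPKM.

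Oxidative phosphorylation genes were among the abundant messages of these cells. The 78 that reached 1 FPKM in at least 2 libraries had a median level, averaged over the 12 libraries, of 230.6 FPKM, against 14.75 FPKM for all 10797 genes that passed the same filter. Together the 84 genes made up 2.89% to 3.40% of a library's summed FPKM. Levels were uneven within a complex. Atp5b, the catalytic beta subunit of ATP synthase, stood highest at 1309 FPKM, and the lowest subunit of complex V, Atp5j2, at 227.5 FPKM. Complex I, with a median of 155.3 FPKM, ran from Ndufa11 at 29.0 FPKM to Ndufa3 at 471.3 FPKM. Complex III ran from Uqcrc2 at 143.7 FPKM to Uqcrb at 522.8 FPKM, and complex II from the membrane anchor Sdhc at 45.6 FPKM to the iron-sulfur protein Sdhb at 216.5 FPKM. The 13 tested complex IV genes had the highest median, 409.1 FPKM, with Cox6b1 on top at 610.7 FPKM.

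Of each pair of complex IV isoforms, these cells held the ubiquitous one. Cox4i1, Cox6a1, Cox6b1, Cox7a2, Cox7b and Cox8a averaged 153.8 to 610.7 FPKM. The tissue-restricted isoforms Cox7b2, Cox8b and Cox8c were listed at 0 in all 12 libraries. Cox4i2 reached 0.379 FPKM, Cox6a2 0.733 FPKM and Ndufa4l2 0.163 FPKM in their highest library, and these 6 genes were left out of the tests. Cox6b2 and Cox7a1 passed the filter at mean levels of 0.656 and 0.953 FPKM, with values of 0 in 4 libraries each, and were called in no comparison. All 3 genes for the c subunit of the ATP synthase rotor, whose mature proteins are identical, were expressed: Atp5g3 at 665.5 FPKM, Atp5g2 at 371.2 FPKM and Atp5g1 at 289.7 FPKM.

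Promoters were read from RefSeq (GRCm38.p6) for the 69 genes with an entry, over the 250 bases before and 50 after the start. Letters bound by factors known for nuclear respiratory genes were searched on both strands, each motif on its own so that matches may overlap. The NRF-1 letters GCGCNTGCG lay in 31.9% of these promoters, against 6.59% of all 27025 promoters and 20.3% of the 848 promoters of genes at 100 to 1000 FPKM. The YY1 letters AAGATGGC lay in 14.5%, against 2.88% of all promoters and 6.84% at that level. The ETS letters CCGGAAG, the core of GABP sites, lay in 21.7%, against 9.12% and 26.8%. The Sp1 letters GGGCGG lay in 40.6%, against 35.9% and 65.4%. Below are the stretches upstream of every annotated transcript for 3 genes that the results turn on: Sdha, which fell under both stimuli, and Uqcrfs1 and Ndufb6, which rose under both. All are on the minus strand of GRCm38.p6, given 5′ to 3′, at chr13:74350281-74350490, chr13:30545363-30545566 and chr4:40279422-40279671. Capitals mark, as reverse complements, the NRF-1 letters in Sdha and the ETS letters followed by 2 Sp1 matches in Ndufb6. None of the 4 motifs lay in the Uqcrfs1 stretch.
Sdha: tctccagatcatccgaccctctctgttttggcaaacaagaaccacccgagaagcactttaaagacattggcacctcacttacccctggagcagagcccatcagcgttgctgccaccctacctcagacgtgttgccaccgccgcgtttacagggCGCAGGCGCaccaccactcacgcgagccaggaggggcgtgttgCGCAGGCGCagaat
Uqcrfs1: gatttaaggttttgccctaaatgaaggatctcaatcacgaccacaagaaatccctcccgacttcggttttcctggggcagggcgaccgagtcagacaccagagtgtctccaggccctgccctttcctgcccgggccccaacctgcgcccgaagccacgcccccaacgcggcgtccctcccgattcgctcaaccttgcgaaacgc
Ndufb6: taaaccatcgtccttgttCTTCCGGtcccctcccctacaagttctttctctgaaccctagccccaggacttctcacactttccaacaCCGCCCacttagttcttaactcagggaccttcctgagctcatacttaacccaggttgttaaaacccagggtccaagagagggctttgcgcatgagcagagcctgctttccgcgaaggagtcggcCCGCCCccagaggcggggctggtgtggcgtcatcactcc

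On the deposited scale, 4 h of stimulation moved more oxidative phosphorylation genes up than down. That balance turned for LPS under quantile normalization and with equal library sums, and for anti-IgM in WT cells under quantile normalization. With LPS, 41 of 78 rose and 11 fell in KO cells, and 48 rose and 9 fell in WT cells (limma on log2(FPKM + 1), Benjamini-Hochberg adjusted p under 0.05 over all genes tested). With anti-IgM, 45 rose and 1 fell in KO cells, and 34 rose and 6 fell in WT cells. Median log2 differences were 0.24 in KO and 0.35 in WT cells with LPS, and 0.25 in KO and 0.18 in WT cells with anti-IgM. These shares stand in a transcriptome that moved as a whole: of all genes tested, 68.7% (KO) and 69.4% (WT) were called with LPS, and 49.9% (KO) and 48.6% (WT) with anti-IgM. Of all genes 34.8% (KO) and 35.0% (WT) were higher and 33.8% (KO) and 34.4% (WT) lower with LPS. With anti-IgM 26.9% (KO) and 27.7% (WT) were higher and 23.0% (KO) and 20.9% (WT) lower. With LPS 39 of the 78 genes rose and 9 (11.5%) fell in both genotypes, against 31.8% and 29.6% of all genes tested. With anti-IgM 32 (41.0%) rose and 1 (1.28%) fell in both, against 23.0% and 17.0% of all genes tested.

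**Figure D1:**
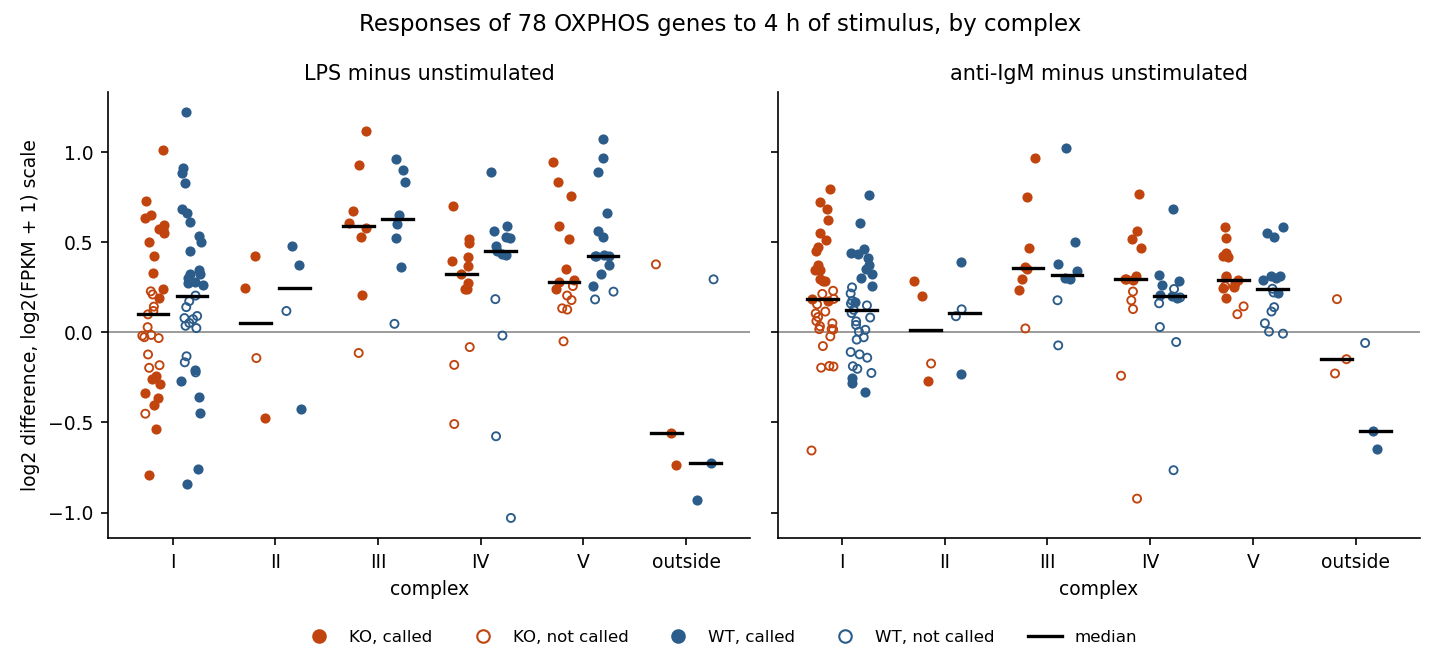
Log2 difference between stimulated and unstimulated cells (vertical axis, log2(FPKM + 1) of the values as deposited) for the 78 genes tested, by complex. Each point is 1 gene in KO (orange, left) or WT (blue, right) cells, filled where called and open where not, and bars are medians. Complex III sits highest under LPS, with medians of 0.59 (KO) and 0.63 (WT), and complex I spreads on both sides of 0. All genes tested at 100 to 1000 FPKM, not drawn, had LPS medians of 0.59 (KO) and 0.64 (WT).

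Genes of like level had positive medians on the deposited scale too. The 1124 tested genes at 100 to 1000 FPKM, the 62 oxidative phosphorylation genes in this range included, had a median log2 difference of 0.59 (KO) and 0.64 (WT) with LPS and of 0.37 (KO) and 0.34 (WT) with anti-IgM. Those 62 had lower medians, 0.29 (KO) and 0.43 (WT) with LPS and 0.29 (KO) and 0.23 (WT) with anti-IgM. They were called higher in 62.9% (KO) and 71.0% (WT) with LPS, against 66.4% and 70.2% of all genes in the range. They were called lower in 6.45% in each genotype, against 17.5% (KO) and 16.0% (WT). With anti-IgM the shares higher were 67.7% (KO) and 51.6% (WT), against 64.9% and 61.6%. The shares lower were 1.61% (KO) and 6.45% (WT), against 14.6% of all genes in the range in each genotype. Among the 8 genes at 50 to 100 FPKM, the median was -0.31 (KO) and -0.17 (WT) with LPS, where all 1150 genes had 0.37 and 0.40. No test was made of these differences in median.

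**Figure D2:**
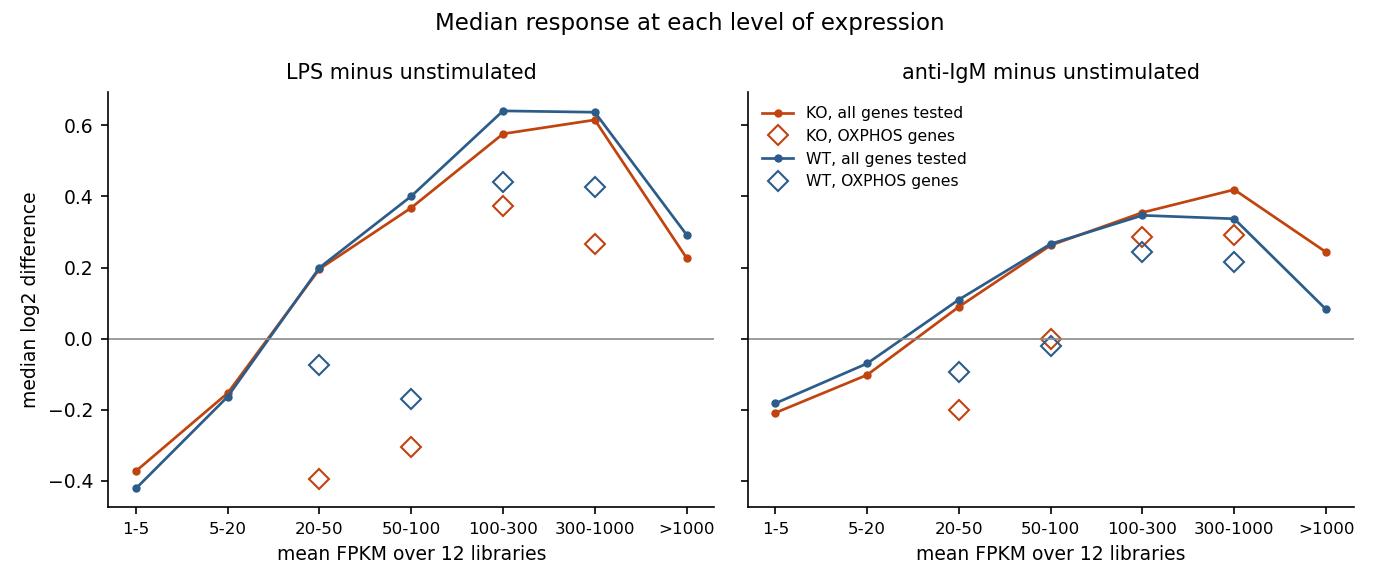
Median log2 difference (vertical axis) of genes binned by mean FPKM over the 12 libraries (horizontal axis), for all genes tested (lines) and for the oxidative phosphorylation genes (diamonds, bins with at least 4 of them), KO in orange and WT in blue. Under LPS the diamonds lie below the lines of their genotype in each bin drawn, for example at 0.27 against 0.62 in KO cells between 300 and 1000 FPKM.

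The direction of the group as a whole depended on how libraries were scaled. When every library was given the same distribution (quantile normalization), 9 genes rose and 44 fell with LPS in KO cells and 11 rose and 35 fell in WT cells, with medians of -0.28 and -0.16. Of all genes tested 35.0% (KO) and 35.3% (WT) then rose and 31.1% (KO) and 30.7% (WT) fell. When library sums were made equal, a choice made after seeing the data, 14 rose and 37 fell in KO cells and 20 rose and 24 fell in WT cells, while 21.2% (KO) and 22.4% (WT) of all genes rose and 49.7% (KO) and 48.9% (WT) fell. That scaling moved the median of all genes to -0.36 in KO and -0.35 in WT cells, and the medians of the oxidative phosphorylation genes, -0.17 and -0.03, were above it. For anti-IgM, quantile normalization left 18 rises and 15 falls in KO cells and 15 rises and 18 falls in WT cells, where 25.9% (KO) and 26.5% (WT) of all genes rose and 21.4% (KO) and 22.2% (WT) fell. With equal sums 19 rose and 11 fell in KO cells and 23 rose and 11 fell in WT cells, against 17.3% (KO) and 21.4% (WT) of all genes rising and 33.4% (KO) and 26.5% (WT) falling. The sources used here give no RNA amount per cell, and in bulk samples fewer cells of a type and less RNA per cell cannot be told apart on any of these scales. Pan-B markers moved with the stimulus as well, and their part in the responses was not tested. They summed to 2744 and 2806 FPKM (KO) and 3364 and 3425 FPKM (WT) with LPS, to 1629 and 1660 FPKM (KO) and 1892 and 1902 FPKM (WT) with anti-IgM, and to 5123 and 5134 FPKM (KO) and 5364 and 5609 FPKM (WT) without stimulus.

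**Figure D3:**
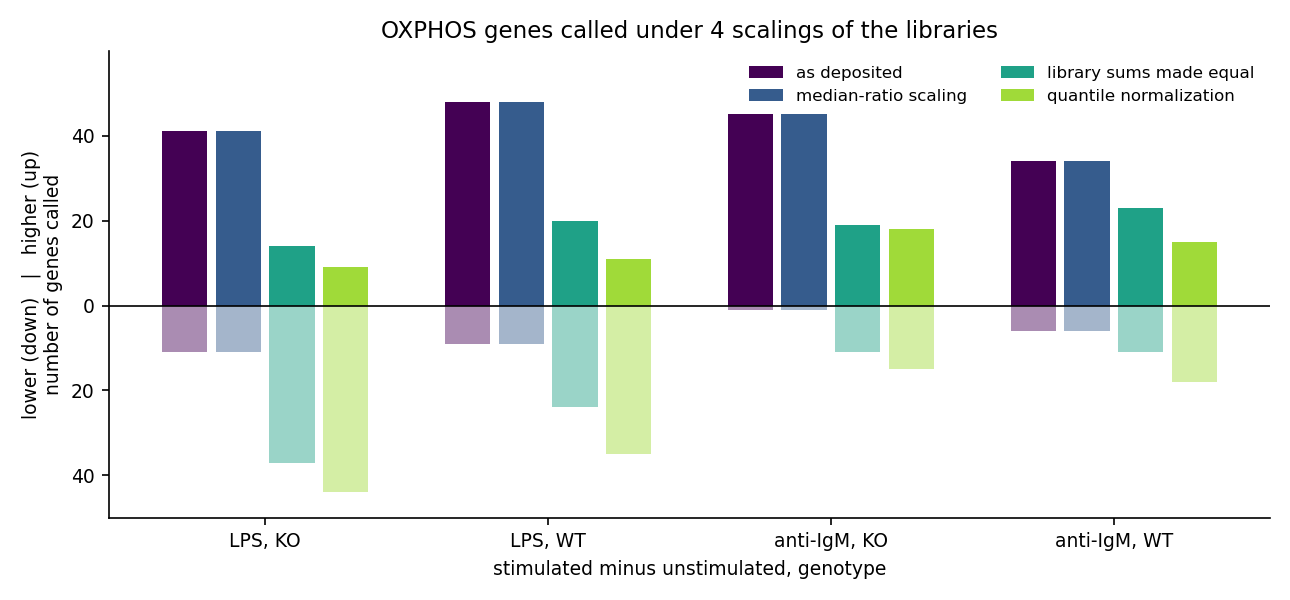
Number of oxidative phosphorylation genes called higher (bars up, full colour) or lower (bars down, pale) in stimulated than in unstimulated cells, under 4 scalings of the libraries. Under LPS in KO cells the calls are 41 higher and 11 lower as deposited, and 9 higher and 44 lower after quantile normalization.

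A smaller set did not depend on the scaling. With LPS, 8 genes rose in both genotypes under all 4 scalings: the complex V genes Atp5b, Atp5g1 and Atp5g3, the complex III genes Uqcrc2, Uqcrfs1 and Uqcrq, and the complex I genes Ndufa12 and Ndufb6. With LPS 9 genes fell in the same way, among them Sdha, the complex I genes Ndufa3, Ndufa6, Ndufa13, Ndufb3 and Ndufv3, and Cox7a2l and Atp5sl. With anti-IgM 13 rose, among them 7 of the 8 genes that rose with LPS (all but Uqcrc2) as well as Atp5j, Cox5a, Ndufa5, Ndufb4, Ndufs6 and Uqcr10. Sdha was the one gene that fell with anti-IgM in both genotypes under every scaling. By genotype, the calls kept under all scalings with LPS were 8 rises and 11 falls in KO cells and 11 rises and 9 falls in WT cells. Of all genes tested, 20.5% (KO) and 21.6% (WT) rose and 26.2% in each genotype fell with LPS under every scaling, and with anti-IgM 16.9% (KO) and 20.5% (WT) rose and 18.5% (KO) and 18.3% (WT) fell. In both genotypes at once, the 8 rises and 9 falls with LPS are 10.3% and 11.5% of the 78 genes, against 18.5% and 22.4% of all genes tested. The 13 rises and 1 fall with anti-IgM are 16.7% and 1.28%, against 15.2% and 14.3%.

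Complex III, which hands electrons to cytochrome c, had the highest median response of the 5 complexes on the deposited scale. Its medians, 0.59 (KO) and 0.63 (WT) with LPS and 0.36 and 0.32 with anti-IgM, were close to those of genes of like level. All genes at 100 to 1000 FPKM had 0.59 and 0.64 with LPS and 0.37 and 0.34 with anti-IgM. With LPS 7 of the 8 complex III genes rose in each genotype on the deposited scale, and with anti-IgM 7 rose in KO and 6 in WT cells. These are 87.5% in each with LPS, against 66.4% (KO) and 70.2% (WT) of all genes at 100 to 1000 FPKM. With anti-IgM they are 87.5% (KO) and 75.0% (WT), against 64.9% and 61.6%. After quantile normalization 3 rose and 2 fell with LPS in each genotype, with medians of 0.02 in KO and 0.03 in WT cells. Uqcrfs1 (mm10, chromosome 13, 30540308 to 30545362, minus strand) encodes the Rieske iron-sulfur protein, one of the catalytic subunits. It was at 344 and 343 FPKM in KO and 263 and 259 FPKM in WT cells with LPS, at 216 and 222 FPKM in KO and 182 and 181 FPKM in WT cells with anti-IgM, and at 162 and 154 FPKM in KO and 134 and 144 FPKM in WT cells without stimulus. Each stimulated group lay above the unstimulated group of its genotype, and in each condition the KO libraries lay above the WT libraries. With LPS the log2 difference was 1.12 ± 0.051 in KO (adjusted p = 1.78e-08, limma) and 0.90 ± 0.051 in WT cells (adjusted p = 8.30e-08, limma).

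Uqcrq, a small accessory subunit of complex III, had the largest rise of the 78 genes under anti-IgM in each genotype. It was at 510.4 and 491 FPKM in KO and 437 and 441 FPKM in WT cells with anti-IgM, at 519.8 and 457 FPKM in KO and 409 and 434 FPKM in WT cells with LPS, and at 262 and 249.95 FPKM in KO and 236 and 198 FPKM in WT cells without stimulus. The stimulated libraries did not overlap the unstimulated ones. Its log2 difference with anti-IgM was 0.96 ± 0.086 in KO (adjusted p = 7.34e-06, limma) and 1.02 ± 0.086 in WT cells (adjusted p = 4.70e-06, limma). The 2 core proteins rose together: with LPS the log2 difference of Uqcrc1 was 0.53 in KO and 0.65 in WT cells, and that of Uqcrc2 was 0.67 in KO and 0.84 in WT cells. Uqcrh, the hinge protein, was the complex III gene with no call, with log2 differences of -0.11 (KO) and 0.05 (WT) with LPS and 0.02 (KO) and -0.07 (WT) with anti-IgM. Uqcrb, at 0.58 (KO) and 0.60 (WT) with LPS, has 3 annotated near-identical pseudogene copies that could share its reads.

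**Figure D4:**
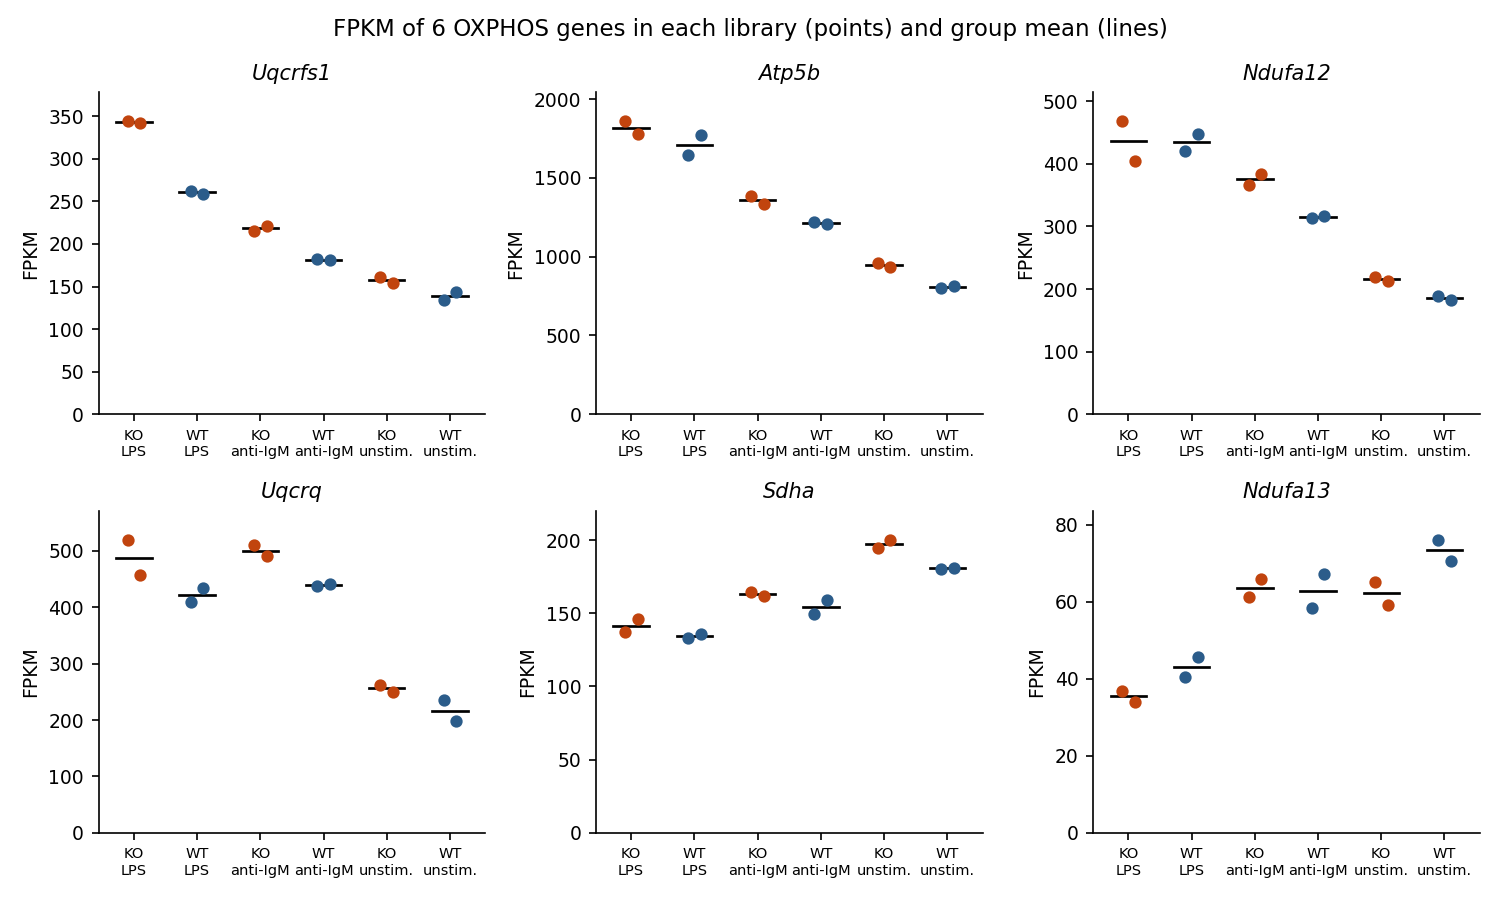
FPKM of 6 oxidative phosphorylation genes in each library (points; KO orange, WT blue), with group means as lines and the vertical axes starting at 0. Uqcrfs1, Atp5b, Ndufa12 and Uqcrq are higher in the stimulated groups, Sdha is lower in them, and Ndufa13 is lowest with LPS. In WT cells the anti-IgM libraries of Ndufa13 also lie below the unstimulated ones. In Uqcrfs1 the KO libraries with LPS, 344 and 343 FPKM, stand above the WT libraries, 263 and 259 FPKM.

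Complex V genes rose without a call in the other direction on the deposited scale, 9 (KO) and 13 (WT) of 15 with LPS and 12 (KO) and 8 (WT) with anti-IgM. After quantile normalization 3 rose and 9 fell in KO cells and 3 rose and 4 fell in WT cells with LPS. Atp5b (mm10, chromosome 10, 128083273 to 128090391, plus strand) was at 1859 and 1779 FPKM in KO and 1644 and 1769 FPKM in WT cells with LPS, at 1387 and 1333 FPKM in KO and 1221 and 1209.9 FPKM in WT cells with anti-IgM, and at 957 and 932 FPKM in KO and 803 and 816 FPKM in WT cells without stimulus. LPS libraries were highest and unstimulated libraries lowest, with no overlap between the conditions. With LPS its log2 difference was 0.94 ± 0.056 in KO (adjusted p = 1.23e-07, limma) and 1.07 ± 0.056 in WT cells (adjusted p = 4.49e-08, limma). Its partner in the catalytic head, the alpha subunit gene Atp5a1, rose less, by 0.59 (KO) and 0.66 (WT) with LPS, and Atp5c1, which encodes the rotating gamma shaft, had 0.13 (KO, not called) and 0.26 (WT).

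The 3 genes for the identical c subunit responded unequally. Atp5g1 was at 417 and 365 FPKM in KO and 376 and 359 FPKM in WT cells with LPS, against 218 and 219.7 FPKM in KO and 195 and 180.4 FPKM in WT cells without stimulus. Atp5g3 was at 899 and 788 FPKM in KO and 807 and 834 FPKM in WT cells with LPS, against 501 and 494 FPKM in KO and 462 and 425 FPKM in WT cells without stimulus. For both, no LPS library overlapped an unstimulated one, and the calls held under every scaling and stimulus. Atp5g2 was at 403 and 357 FPKM in KO and 433 and 428 FPKM in WT cells with LPS, against 316 and 343 FPKM in KO and 346 and 296 FPKM in WT cells without stimulus. Its log2 difference with LPS was 0.20 ± 0.086 in KO cells, which was not called, and 0.42 ± 0.086 in WT cells (adjusted p = 0.00124, limma), and after quantile normalization it was -0.34 and -0.11. Without stimulus Atp5g2 stood above Atp5g1 in each library. With LPS Atp5g1 stood slightly above Atp5g2 in each KO library, though the ranges of the 2 genes overlapped. In WT cells with LPS Atp5g2 stayed above. Atp5g2 has 2 annotated near-identical pseudogene copies.

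Complex I, the largest of the complexes, moved in both directions. With LPS 13 (KO) and 17 (WT) of its 35 genes rose and 8 (KO) and 6 (WT) fell, and with anti-IgM 16 (KO) and 12 (WT) rose and 0 (KO) and 3 (WT) fell. The LPS rises are 37.1% (KO) and 48.6% (WT), against 34.8% and 35.0% of all genes tested and 66.4% and 70.2% of those at 100 to 1000 FPKM. The LPS falls are 22.9% (KO) and 17.1% (WT), against 33.8% and 34.4% of all genes and 17.5% and 16.0% in that range. With anti-IgM 45.7% (KO) and 34.3% (WT) rose, against 26.9% and 27.7% of all genes and 64.9% and 61.6% in that range. After quantile normalization 2 (KO) and 4 (WT) rose and 21 in each genotype fell with LPS. Among the 7 core subunits encoded in the nucleus, Ndufv2, which carries an iron-sulfur cluster beside the NADH site, rose most with LPS, by 0.58 ± 0.056 in KO and 0.88 ± 0.056 in WT cells on the log2 scale. The largest rise in the complex was in the accessory subunit Ndufa12. It was at 468 and 404 FPKM in KO and 421 and 448 FPKM in WT cells with LPS, at 366 and 384 FPKM in KO and 314 and 317 FPKM in WT cells with anti-IgM, and at 219 and 212 FPKM in KO and 188 and 183 FPKM in WT cells without stimulus. Stimulated and unstimulated libraries did not overlap, and the log2 difference with LPS was 1.01 ± 0.069 in KO (adjusted p = 3.66e-07, limma) and 1.22 ± 0.069 in WT cells (adjusted p = 8.32e-08, limma).

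Ndufb6, a membrane-arm subunit whose promoter was shown, rose in all 4 stimulated groups, with log2 differences of 0.73 (KO) and 0.91 (WT) with LPS and 0.72 (KO) and 0.61 (WT) with anti-IgM. It shares 39.0% of its exonic bases with Smim27 on the opposite strand, and the counting is not stated to use strand. Ndufa13, also known as GRIM-19, went the other way. It was at 36.8 and 34.1 FPKM in KO and 40.5 and 45.6 FPKM in WT cells with LPS, at 61.3 and 66.0 FPKM in KO and 58.3 and 67.1 FPKM in WT cells with anti-IgM, and at 65.1 and 59.1 FPKM in KO and 76.1 and 70.7 FPKM in WT cells without stimulus. LPS libraries were the lowest. Anti-IgM libraries of KO cells overlapped the unstimulated ones, and those of WT cells lay below the unstimulated ones without a call. Its log2 difference with LPS was -0.79 ± 0.092 in KO (adjusted p = 2.24e-05, limma) and -0.76 ± 0.092 in WT cells (adjusted p = 3.14e-05, limma). Tssk6, on the opposite strand over 30.0% of its exonic bases, was at no more than 2.075 FPKM. Ndufv3 fell with LPS by 0.54 in KO and by 0.84 in WT cells, and Ndufa3, the most abundant complex I message, by 0.28 in KO and by 0.45 in WT cells. Neither was called with anti-IgM.

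Other accessory subunits of complex I rose with anti-IgM. Ndufa5, a peripheral-arm subunit, was at 251 and 252 FPKM in KO and 213 and 197 FPKM in WT cells with anti-IgM, against 155 and 157 FPKM in KO and 166 and 139 FPKM in WT cells without stimulus. Ndufs6, a zinc-binding subunit of the same arm, was at 238 and 266 FPKM in KO and 232 and 226 FPKM in WT cells with anti-IgM, against 176 and 185 FPKM in KO and 178 and 159 FPKM in WT cells without stimulus. Ndufb4, of the membrane arm, was at 314 and 317 FPKM in KO and 314 and 279.5 FPKM in WT cells with anti-IgM, against 219 and 223 FPKM in KO and 215 and 214 FPKM in WT cells without stimulus. In all 3 genes the conditions did not overlap, and the log2 differences were 0.43 to 0.68, called in both genotypes under every scaling. Ndufs6 has 1 annotated near-identical pseudogene copy. Ndufv1, which holds the NADH site, fell with LPS by 0.25 in KO cells and had -0.13 in WT cells, and Ndufs1, another core subunit of the peripheral arm, rose by 0.24 (KO) and 0.32 (WT).

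The 4 genes of complex II, or succinate dehydrogenase, did not move together. Sdha (mm10, chromosome 13, 74322254 to 74350280, minus strand), the flavoprotein that oxidises succinate in both the respiratory chain and the tricarboxylic acid cycle, was at 137 and 146 FPKM in KO and 133 and 136 FPKM in WT cells with LPS. It was at 165 and 162 FPKM in KO and 149 and 159 FPKM in WT cells with anti-IgM, and at 194 and 200.3 FPKM in KO and 181 and 181 FPKM in WT cells without stimulus. Within each genotype the LPS libraries were lowest, the unstimulated highest, and no 2 conditions overlapped. The log2 difference was -0.48 ± 0.052 (KO, adjusted p = 1.55e-05, limma) and -0.42 ± 0.052 (WT, adjusted p = 3.68e-05, limma) with LPS, and -0.27 ± 0.052 (KO, adjusted p = 0.00162, limma) and -0.23 ± 0.052 (WT, adjusted p = 0.00449, limma) with anti-IgM. Over the 4 scalings the LPS difference ran from -0.97 to -0.48 in KO and from -0.96 to -0.42 in WT cells.

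Sdhd, a membrane anchor, was at 216 and 204 FPKM in KO and 192 and 183 FPKM in WT cells with LPS, against 163 and 149 FPKM in KO and 138 and 130.2 FPKM in WT cells without stimulus. The libraries of the 2 conditions did not overlap, and the log2 difference was 0.42 in KO and 0.48 in WT cells. Sdhb, the iron-sulfur protein, had 0.25 (KO) and 0.37 (WT), both called. After quantile normalization Sdhd had -0.12 (KO) and -0.07 (WT) and Sdhb -0.29 (KO) and -0.21 (WT), so that their rise, unlike the fall of Sdha, turned with the scaling. Sdhc, the other anchor, had -0.14 (KO) and 0.12 (WT) and was not called. Sdha thus had the lowest difference of the 4 genes with LPS in each genotype.

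In complex IV, 10 (KO) and 9 (WT) of 13 tested genes rose with LPS and 8 (KO) and 7 (WT) with anti-IgM, with 0 falls on the deposited scale. These are 76.9% (KO) and 69.2% (WT) with LPS, against 66.4% and 70.2% of all genes at 100 to 1000 FPKM. With anti-IgM they are 61.5% (KO) and 53.8% (WT), against 64.9% and 61.6%. After quantile normalization 0 (KO) and 1 (WT) rose and 7 (KO) and 4 (WT) fell with LPS. Cox5a, one of the subunits that face the matrix, rose most, to 640.4 and 547 FPKM in KO and 600.2 and 624 FPKM in WT cells with LPS, against 364 and 365 FPKM in KO and 361 and 301 FPKM in WT cells without stimulus. With anti-IgM it was at 607 and 635 FPKM in KO and 524 and 535 FPKM in WT cells. No stimulated library overlapped an unstimulated one, and the log2 difference with anti-IgM was 0.77 ± 0.09 in KO and 0.68 ± 0.09 in WT cells. Cox4i1 rose less, by 0.24 (KO) and 0.45 (WT) with LPS, and Cox8a had -0.08 (KO) and -0.02 (WT) and was not called.

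Of the 3 tested genes that share a name with subunits but sit outside the complexes, 2 fell with LPS in each genotype. Cox7a2l, which joins complexes III and IV into supercomplexes, was at 72.3 and 48.6 FPKM in KO and 73.9 and 71.4 FPKM in WT cells with LPS, against 99.1 and 100.2 FPKM in KO and 129.8 and 112 FPKM in WT cells without stimulus. Its 2 KO libraries with LPS differed more than those of other groups, and all 4 LPS libraries lay below the unstimulated ones. The log2 difference was -0.74 ± 0.15 in KO (adjusted p = 0.00161, limma) and -0.72 ± 0.15 in WT cells (adjusted p = 0.00181, limma). Cox7a2, the true subunit, rose by 0.40 (KO) and 0.43 (WT) in the same comparison. Atp5sl, also called Dmac2 and linked to complex I assembly, fell with LPS by 0.56 in KO and by 0.93 in WT cells. With anti-IgM Cox7a2l fell by 0.65 and Atp5sl by 0.55 in WT cells. In KO cells they had -0.15 and -0.23 and were not called.

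LPS and anti-IgM were set against each other over both genotypes, 4 libraries each. On the deposited scale 26 genes were higher with LPS and 12 lower, where 64.0% of all genes tested were called, 33.5% higher and 30.5% lower, and after quantile normalization 5 were higher and 55 lower. Uqcrfs1 was the gene furthest above, by 0.58 ± 0.036 (adjusted p = 2.21e-07, limma), followed by Uqcrc2 at 0.46, Atp5b at 0.45 and Ndufv2 at 0.42. On the other side Ndufa13 had -0.68 ± 0.065 (adjusted p = 6.28e-06, limma), Ndufv3 -0.53, Ndufa3 -0.33 and Sdha -0.20. Under every scaling 5 genes were called higher with LPS (Atp5b, Atp5g1, Ndufv2, Uqcrc2 and Uqcrfs1) and 12 lower, against 18.9% and 23.6% of all genes tested. Of those 12, 8 belong to complex I, which holds 35 of the 78 genes tested. Uqcrq, by contrast, had a difference of -0.05 and was not called.

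Differences between KO and WT cells were small. Of all genes at 100 to 1000 FPKM, 15.2% were called higher in KO without stimulus, 2.85% with LPS and 6.05% with anti-IgM. Of the 62 oxidative phosphorylation genes in that range, the shares were 1.61%, 1.61% and 3.23%. Without stimulus 2 of 78 genes were called, both higher in KO, where 6.11% of all genes tested were called and 4.45% were higher. Uqcrc1 was at 288 and 278 FPKM in KO and 241 and 253 FPKM in WT cells, a log2 difference of 0.20 ± 0.046 (adjusted p = 0.0378, limma). Atp5b differed by 0.22 ± 0.056 (adjusted p = 0.0454, limma). Both calls were lost without each of the 4 libraries in turn. With LPS 1 gene was called, Uqcrfs1, higher in KO by 0.40 ± 0.051 (adjusted p = 0.00232, limma), where 3.59% of all genes tested were called and 1.82% were higher. This call held under all 4 scalings and without each of the 4 libraries, and was lost when the 4 libraries were fitted alone (adjusted p = 0.0823, limma, in a range of 0.00214 to 0.0823 over all alternatives). With anti-IgM Uqcrfs1 (0.27 ± 0.051, adjusted p = 0.0183, limma) and Atp5l (0.27 ± 0.065, adjusted p = 0.0456, limma) were called, both higher in KO, against 3.83% of all genes tested called and 1.91% higher. Atp5l, subunit g of the membrane sector of ATP synthase, was at 454 and 453 FPKM in KO and 382 and 368 FPKM in WT cells. It has 8 annotated near-identical pseudogene copies. Both anti-IgM calls were lost under quantile normalization, with equal library sums and without each of the 4 libraries in turn.

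Most KO minus WT differences missed the test gene by gene. With anti-IgM 70 of 78 genes had a positive KO minus WT difference, with a median of 0.14. Of all genes tested 49.3% were positive, and of the genes at 100 to 1000 FPKM 75.9%, with a median of 0.10 in that range. Without stimulus 61 (78.2%) were positive, with a median of 0.08, where 54.6% of all genes and 75.3% of those at 100 to 1000 FPKM were positive, with a median of 0.09 in that range. With LPS 31 (39.7%) were positive, with a median of -0.03, where 54.5% of all genes and 56.6% of those in the range were positive. By complex, the anti-IgM medians were 0.11 for complex I, 0.10 for complex II, 0.17 for complex III, 0.20 for complex IV and 0.16 for complex V, and all 15 complex V genes were positive. After quantile normalization the anti-IgM median over the 78 genes was 0.04 with 56 positive, and with equal library sums 0.05 with 54 positive. Averaged over the 3 conditions, 11 genes were called, all higher in KO, where 16.0% of all genes tested were called and 10.2% were higher. Of all genes at 100 to 1000 FPKM 30.1% were higher, against 14.5% of the 62 oxidative phosphorylation genes in that range. After quantile normalization 4 were higher and 2 lower, with a median of 0.0008 and 39 positive and 39 negative differences, and with equal library sums 6 were higher and 1 lower, with a median of 0.0164. On the deposited scale Uqcrfs1 had 0.28 ± 0.029 (adjusted p = 0.000190, limma) and Uqcrq 0.21 ± 0.05 (adjusted p = 0.0154, limma). The other 9 were Atp5a1, Atp5b, Atp5g1, Atp5g3, Atp5l, Ndufa12, Ndufs1, Sdhd and Uqcrc1, at 0.12 to 0.16, and 5 of the 11 encode subunits of ATP synthase. These 5 are 33.3% of the 15 complex V genes, beside the 30.1% of all genes at 100 to 1000 FPKM. Uqcrfs1, Uqcrq and Atp5l kept this call under every scaling, against 5.45% of all genes tested that were higher under every scaling.

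**Figure D5:**
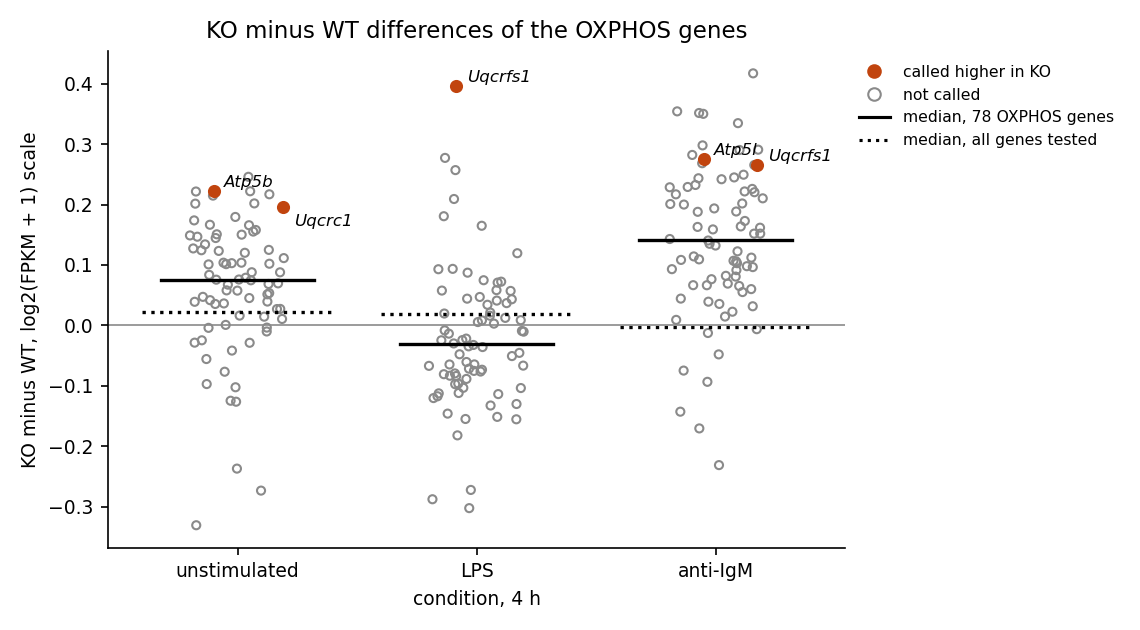
KO minus WT difference (vertical axis, log2(FPKM + 1) scale) of the oxidative phosphorylation genes in each condition (horizontal axis). Each point is 1 gene, filled and named where called, solid bars are the medians of the 78 genes and dotted bars those of all genes tested. The solid bar lies at 0.14 with anti-IgM against 0.00 for all genes, and Uqcrfs1 stands apart with LPS at 0.40. Genes at 100 to 1000 FPKM, whose medians have no bar, had a median of 0.10 with anti-IgM. Values beyond 0.5, of Cox6b2 in 2 conditions and Cox7a1 in 1, are not drawn.

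Sums of other gene lists differed between KO and WT libraries as well. The 4 erythroid markers summed to 189.5 and 94.9 FPKM in KO and 509.3 and 364.8 FPKM in WT cells with anti-IgM. With LPS they summed to 230.5 and 268.1 FPKM in KO and 368.4 and 332.8 FPKM in WT cells. Without stimulus the genotypes overlapped, at 356.9 and 480 FPKM in KO and 398.4 and 669.4 FPKM in WT cells. The 7 marginal zone markers summed to 767.1 and 806.1 FPKM in KO and 559.1 and 576.9 FPKM in WT cells with LPS, to 912.1 and 939.1 FPKM in KO and 712.9 and 716.5 FPKM in WT cells with anti-IgM, and to 1276 and 1289 FPKM in KO and 945.3 and 967.6 FPKM in WT cells without stimulus. The follicular marker Fcer2a, together with Cd5, summed to 554.4 and 561.1 FPKM in KO and 923.2 and 937.9 FPKM in WT cells with LPS. With anti-IgM these sums were 57.9 and 65.5 FPKM in KO and 116.5 and 133.7 FPKM in WT cells. Without stimulus they were 85 and 86.9 FPKM in KO and 126.9 and 141 FPKM in WT cells. Cd5 was at no more than 5.73 FPKM, so the sums follow mostly Fcer2a, 1 gene that itself moved with LPS. The 4 plasma cell markers summed to 90.2 and 94.5 FPKM in KO and 74.5 and 76.5 FPKM in WT cells with LPS, to 171.8 and 173.5 FPKM in KO and 133.6 and 139.2 FPKM in WT cells with anti-IgM, and to 149.7 and 162.7 FPKM in KO and 119.1 and 122.7 FPKM in WT cells without stimulus. In each condition the marginal zone and plasma cell sums were higher and the sums of Fcer2a and Cd5 lower in KO, with no overlap. Single marginal zone markers went both ways. Cd9, Dtx1, Cd36 and S1pr3 were higher in KO in each condition, Cd9 at 470 and 472 against 269 and 284 FPKM in WT cells without stimulus. With LPS Cr2 was lower in KO, at 70.3 and 75.1 against 86.4 and 87.4 FPKM, and so was Mzb1. Mzb1 was higher in KO with anti-IgM and without stimulus, there at 610 and 606 against 534 and 482 FPKM. Cd9 and Mzb1 had the highest FPKM of the 7 markers in each library, so the marginal zone sums follow mostly them. Cr2 was also lower in KO with anti-IgM, and without stimulus Cr2 and Cd1d1 overlapped between genotypes. The nuclear RNAs Malat1 and Neat1 summed to 204.2 and 212.7 FPKM in KO and 258.5 and 293.9 FPKM in WT cells with anti-IgM. Without stimulus they summed to 297.5 and 305.4 FPKM in KO and 389 and 432.3 FPKM in WT cells. With LPS the genotypes overlapped, at 135.9 and 153.1 FPKM in KO and 167.7 and 142.5 FPKM in WT cells. The part of these RNAs in the genotype differences was not tested.

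Whether the stimulus responses differed between KO and WT cells was tested as an interaction, for which limma called 0 of 78 genes for either stimulus. Of all genes tested 0.102% were called for LPS and 0.0278% for anti-IgM. At an unadjusted p under 0.05 there were 2 genes for LPS and 6 for anti-IgM, and no other tool was run. The smallest p for LPS in each direction belonged to Ndufv2, whose LPS response in KO minus that in WT was -0.31 ± 0.08 (adjusted p = 0.257, limma), and Uqcrfs1, with 0.22 ± 0.071 (adjusted p = 0.347, limma). For anti-IgM they were Ndufb2 at 0.48 ± 0.17 (adjusted p = 0.559, limma) and Sdhc at -0.30 ± 0.12 (adjusted p = 0.574, limma). The count of falls with anti-IgM, 1 in KO against 6 in WT cells, is therefore no test of a difference between genotypes.

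The factors that assemble the complexes moved in both directions. The counts below stand beside 34.8% (KO) and 35.0% (WT) of all genes tested that were higher with LPS, and 33.8% and 34.4% that were lower. Of 14 tested assembly factors of complex I, 7 rose and 3 fell with LPS in each genotype. Ndufaf4 rose most, by 1.96 in KO and 2.19 in WT cells on the log2 scale, more than any subunit of that complex. Of 23 complex IV factors, 12 (KO) and 10 (WT) rose and 2 in each fell. Lrpprc, which stabilises mitochondrial messages, had 1.12 (KO) and 1.18 (WT), and Surf1 fell, at -1.29 (KO) and -1.34 (WT). Of 13 factors for complexes II, III and V, 7 (KO) and 8 (WT) rose and 2 in each fell. Among them Uqcc2, a complex III factor, had 1.07 (KO) and 1.35 (WT). Sdhaf4, which assists the flavoprotein SDHA, fell at -1.23 (KO) and -1.27 (WT), in the same direction as Sdha. These named calls held under all 4 scalings, while with equal library sums the counts for complex I factors became 4 rises and 5 falls in each genotype.

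Of 17 tricarboxylic acid cycle genes, 12 rose in each genotype with LPS and 4 (KO) and 2 (WT) fell, and after quantile normalization 5 (KO) and 7 (WT) rose and 8 (KO) and 5 (WT) fell. Idh3a, a subunit of NAD-dependent isocitrate dehydrogenase, led with 1.67 (KO) and 1.95 (WT). Of 14 tested regulators of mitochondrial gene expression, 8 rose and 1 fell with LPS in each genotype, and 10 rose in each after quantile normalization. For both lists the shares of all genes tested were 34.8% (KO) and 35.0% (WT) higher and 33.8% and 34.4% lower. After quantile normalization they were 35.0% and 35.3% higher and 31.1% and 30.7% lower. Myc had 2.87 (KO) and 3.04 (WT) with LPS and 1.98 (KO) and 2.24 (WT) with anti-IgM. Pprc1, a coactivator related to PGC-1, had 2.02 (KO) and 1.93 (WT) with LPS, and Gabpb1, a subunit of the ETS factor GABP, 1.43 (KO) and 1.45 (WT). Subunit genes with and without the NRF-1 letters were found on both sides: they lay in 2 of 6 promoters read among the genes that rose with LPS under every scaling and in 3 of 8 among those that fell, Sdha among them.

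Across the 77 genes with a transcript annotation, the response was set against the GC share of the transcript, with r = -0.33 in KO and r = -0.32 in WT cells for LPS, against r = -0.05 and -0.08 over all 10693 genes. For anti-IgM it was -0.21 in KO and -0.11 in WT cells. It was -0.43 for LPS minus anti-IgM, against -0.07 over all genes, and -0.32 for KO minus WT with anti-IgM, against -0.03. These correlations run across genes of the same libraries and are descriptions only.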

How the data were processed

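Total RNA of marginal zone B cells was isolated with the miRNeasy Mini Kit, copied to full-length cDNA with the SMART-Seq HT Kit and made into Nextera libraries, per the labels' protocols. TopHat2 2.0.13, Bowtie2 2.2.3, SAMtools 0.1.19, Cufflinks 2.2.1 and the mm10 build are named in the submitters' processing notes. The values deposited by the authors are taken as FPKM, since Cufflinks is named and no header gives the unit. The authors' values were already scaled between libraries, with median ratios of 1.008 to 1.015 to a common reference. Counts and total reads are not given, so depth is known only relative to 1 library, from the steps between low FPKM values.

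From these values, log2(FPKM + 1) of the 10797 genes that reached 1 FPKM in 2 or more libraries were fitted with limma 3.58.1 (R 4.3.3; eBayes with trend), as 6 group means over 12 libraries with 6 residual degrees of freedom. Tests were 2-sided, with Benjamini-Hochberg adjustment over all genes tested and calls at an adjusted p under 0.05, for 11 comparisons. Errors are standard errors of the fit. The fit was tested on simulated data. Alternatives were a pseudocount of 0.1, no filter, a mean of at least 5 FPKM, median-ratio scaling, quantile normalization, the replicate number as a block, a fit of the compared libraries alone and leaving out each library. Equal library sums were added after seeing the data. Annotation was GENCODE M21, near-identical copies were found with blastn 2.17.0 (at least 95% identity over at least 50% of a transcript), and promoters came from RefSeq.

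Named were, per comparison, up to 4 called genes of smallest adjusted p in each direction, or without calls the gene of smallest p in each direction. Also named were each complex's highest and lowest genes by FPKM, complex II, isoform sets, genes left out, and up to 3 genes of smallest p per related list. Others were chosen after their values were seen. The genes, lists and tests were chosen with earlier results of these data known.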

Additional observations from a re-analysis of the deposited data

How the results depend on the processing

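Scaling mattered most. After quantile normalization, the median log2 difference of the oxidative phosphorylation genes was -0.2809 (KO) and -0.1606 (WT) with LPS, -0.0068 (KO) and -0.0061 (WT) with anti-IgM, -0.2173 for LPS against anti-IgM (60 calls), 0.0405 for KO against WT with anti-IgM and 0.0137 for the genotype by anti-IgM interaction. With library sums made equal, chosen after seeing the data, the same medians were -0.1742, -0.0349, 0.0554 (30 calls), 0.0647, -0.1739, 0.0547 and -0.0009. The cause was not tested. Single genes turned too: after quantile normalization Sdhb had -0.29 (KO) and -0.21 (WT) with LPS and -0.0422 and -0.12 with anti-IgM, Sdhc -0.15 (WT, LPS) and -0.0202 (WT, anti-IgM), Sdhd -0.12 (KO) and -0.0748 (WT) with LPS, and Atp5g2 -0.34 (KO) and -0.11 (WT) with LPS and -0.0579 (KO) with anti-IgM. With equal sums Sdhb had -0.16 (KO) and -0.0180 (WT) with LPS and -0.0295 (WT) with anti-IgM, Sdhc -0.26 (WT, LPS) and Atp5g2 -0.21 (KO, LPS). Calls of KO against WT without stimulus numbered 0 after quantile normalization, 1 with equal sums, 1 without the filter and 0 with just the compared libraries fitted. With LPS that last fit called 0. With anti-IgM the numbers were 0, 0, 1 and 0, and averaged over conditions 6 after quantile normalization (4 higher, 2 lower) and 7 with equal sums (6 higher, 1 lower).

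Leaving out 1 library at a time gave 0 to 0 calls and a median of 0.0194 to 0.1328 for KO against WT without stimulus, 1 to 2 and -0.1257 to 0.0423 with LPS, 0 to 1 and 0.1231 to 0.1574 with anti-IgM, and 8 to 16 and 0.0319 to 0.0910 for the mean of conditions. For LPS it gave 44 to 53 calls and 0.1693 to 0.3456 in KO and 50 to 59 and 0.3163 to 0.4222 in WT cells. For anti-IgM it gave 34 to 38 and 0.2279 to 0.2768 in KO and 30 to 41 and 0.1344 to 0.2570 in WT cells. LPS against anti-IgM gave 29 to 39 and 0.0151 to 0.1053. The interactions had 0 to 0 calls, with medians of -0.1705 to -0.0317 for LPS and 0.0260 to 0.1402 for anti-IgM. A group left with 1 library is assumed to vary like the others.

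Over all genes tested, replicate numbers did not pair the libraries: over 15 pairs of groups the correlation of same-numbered deviations was -0.172 to 0.199, with 3 over 0.1. For the 78 oxidative phosphorylation genes, the median deviation from each gene's mean on the log2 scale was higher in replicate 1 than in replicate 2 in each group. It was 0.1753 against 0.0265 in KO and 0.1420 against 0.1253 in WT cells with LPS. The source of this order was not tested. With the replicate number as a block, 4 genes were called between KO and WT with anti-IgM, and the other counts stayed within 1.5 times. With 2 libraries per group and unknown depth, small differences between genotypes could be missed.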
